A study of Mus musculus with 6 samples.

Results

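The 9 genes described here make the building blocks of DNA, and they were followed in mouse CD4+ effector T cells sorted by the activity of the xenobiotic transporter Mdr1. They were chosen by name as enzymes of deoxynucleotide and thymidylate synthesis (Rrm1, Rrm2, Rrm2b, Tyms, Tk1, Dut, Dck, Dctd and Shmt1), with earlier results of these data known. All 9 were found among the 23366 genes of the count table. The T cells had been transferred into Rag-deficient hosts and were taken from the mesenteric lymph nodes 6 weeks later. Rhodamine 123 is a dye that Mdr1 pumps out, so cells with low dye were collected as Mdr1+ (Rh123lo) and cells with high dye as Mdr1- (Rh123hi). Each fraction has 3 libraries, with FVB/N given as the strain background of both. Host lymph nodes without T or B cells of their own still hold myeloid, dendritic, natural killer and stromal cells, and the labels do not say whether a library came from 1 mouse or a pool. P-values therefore measure the spread between these samples, which may be technical.

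Deoxynucleotides are made mainly by ribonucleotide reductase, which removes the 2′ oxygen of ribonucleotides. Its large subunit (Rrm1) pairs with a small subunit that is either Rrm2, made in dividing cells and destroyed after mitosis, or Rrm2b, the p53-inducible form that serves resting cells and DNA repair. Thymidylate, the nucleotide found in DNA and not in RNA, comes from deoxyuridylate: Dctd and Dut supply that substrate, and Tyms methylates it with a folate carbon that Shmt1 helps to load. The salvage kinases Tk1 and Dck instead phosphorylate ready-made deoxynucleosides.

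Libraries held 2220691 to 20771456 counts in genes, the Mdr1+ library of replicate 3 being the shallowest and the one that a principal component analysis of log2 CPM (read counts scaled to a common library size) sets apart, along a component with 59.2% of the variance. CPM values below are scaled by TMM, a correction for library composition. The deposited replicate 3 columns had rank correlations of only 0.424 to 0.460 with the other libraries across genes, and 0.926 to 0.962 once their values were assigned to the gene names sorted without regard to case. All values below use that order, which moves 19002 names, and in the order as deposited 0 of 10961 tested genes were called in either direction, the 9 members included.

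Abcb1a, which encodes Mdr1, checked the sort: it was at 177, 132 and 178 CPM in the Mdr1+ libraries of replicates 1, 2 and 3 and at 72.9, 42.0 and 73.4 CPM in the Mdr1- libraries (log2 fold change 1.37 ± 0.25, SE, edgeR adjusted p = 0.0237). Abcb1b, the other Mdr1 gene, was at 139, 41.6 and 101 CPM in Mdr1+ and at 75.9, 25.1 and 66.2 CPM in Mdr1- libraries. Its groups overlapped (93.9 ± 49.2 and 55.7 ± 27.0 CPM, SD, n = 3 each), but Mdr1+ was higher within each replicate number. Its log2 fold change of 0.75 ± 0.48 passed only with the replicate number added to the fit as a block (edgeR adjusted p = 0.624, and 0.00457 once blocked). T cell markers summed to 7323 to 8202 CPM in Mdr1+ and 7074 to 8246 CPM in Mdr1- libraries, with Cd4 at 1023 CPM or more in each.

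In Mdr1+ cells 5 of the 9 genes fell (Rrm2, Tyms, Tk1, Dut and Dck), by 1.10 to 3.02 on the log2 scale. Rrm1 and Shmt1 were about as much lower as Dck and passed when the replicate number was added to the fit as a block (Rrm1 also in some fits without it), Dctd did not pass in either fit, and Rrm2b was at a similar level in both fractions, with overlapping libraries. In edgeR's quasi-likelihood test, with Benjamini-Hochberg adjustment over 10897 tested genes and a threshold of 0.05, 5 of 9 members were called lower, against 1.95% of all tested genes (2.22% were called in either direction). With the block 7 of 9 were called lower, against 6.57% of all tested genes. None was called higher by edgeR in either fit, by DESeq2, or at an unadjusted p under 0.05 (0 of 9 each). Of all tested genes 0.275% were called higher by edgeR without the block and 5.81% with it. In 7 of 9 members every Mdr1+ library lay below every Mdr1- library, which held for 11% of all tested genes (8.71% had every Mdr1+ library above). The median log2 fold change was -1.11 over the members and 0.04 over all tested genes. Leaving out the Mdr1- library of replicate 3 left 2 members called lower (Rrm2 and Tyms) and 75 of all tested genes. Leaving out both libraries of replicate 1, 2 or 3 gave 3, 1 and 0 members, and 108, 43 and 0 of all tested genes. With the block it was 6 members in each of these: Shmt1 dropped out without replicate 1 or 2, and Rrm1 without replicate 3.

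**Figure D1:**
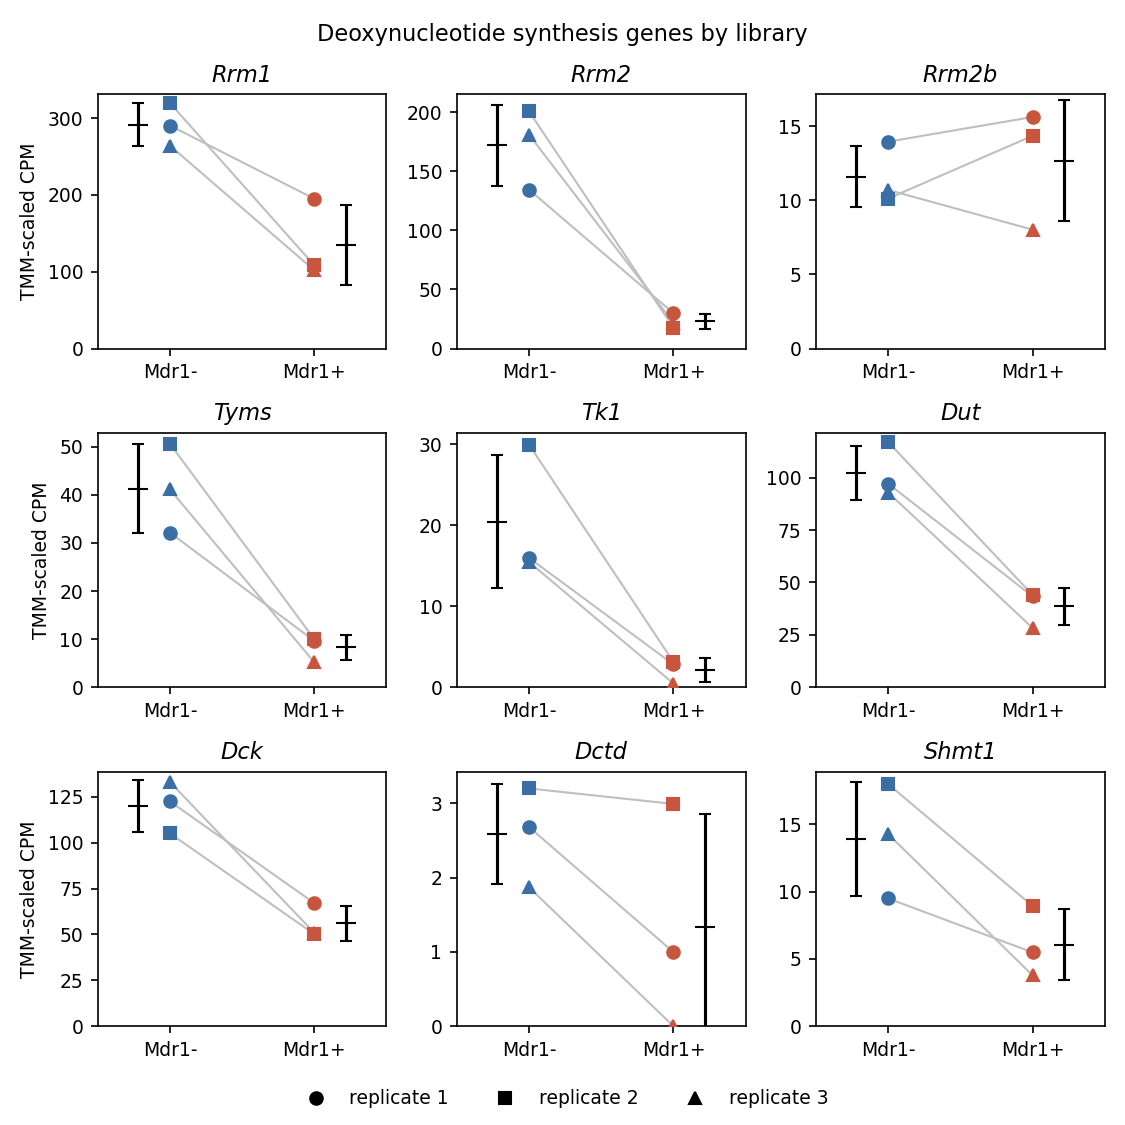
Level of each of the 9 genes in TMM-scaled CPM (linear y axes that start at 0) in the Mdr1- (blue) and Mdr1+ (red) libraries; each symbol is a replicate, grey lines connect equal replicate numbers, and means with their SD over 3 libraries are in black (the SD of Dctd is cut at 0). In 7 genes every Mdr1+ library lies below every Mdr1- library, and the groups of Rrm2b and Dctd overlap.

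In bulk RNA, fewer cells in S phase and less transcript per cell cannot be told apart, and this holds for all falls described here. Beside them stand the levels of cycling genes. Genes of the replication fork summed to 1001 to 1170 CPM in Mdr1+ and 2436 to 2850 CPM in Mdr1- libraries, and 14 of 23 tested genes fell (19 with the block; median log2 fold change -1.27). Genes of mitosis summed to 523 to 690 CPM and 2288 to 3922 CPM, and 18 of 20 fell (20 with the block; median -2.55). Both lists were drawn up with earlier results of these data known.

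The stretches below show 3 promoters with a CCAAT box close to the start, those of Rrm1, Rrm2 and Shmt1, and that of Tyms, which was called lower and has none. Those of Tk1, Dut and Dck, also called lower, have none in the same stretch and are not printed. Dctd, which passed in neither fit, has such a box 27 or 82 bases before some of its start sites and none before another. It is not printed either. Shown are the 120 bases before the RefSeq start site on the gene's strand (build GRCm38.p6), Rrm1 at chr7:102441575-102441694 (+), Rrm2 at chr12:24708134-24708253 (+), Shmt1 at chr11:60811266-60811385 (-) and Tyms at chr5:30073626-30073745 (-). Capitals mark the CCAAT box, read as ATTGG on the other strand, and in Rrm1 an E2F word shortened by its first T.
Rrm1: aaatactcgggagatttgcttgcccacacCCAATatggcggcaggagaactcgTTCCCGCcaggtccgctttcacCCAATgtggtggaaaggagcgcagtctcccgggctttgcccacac
Rrm2: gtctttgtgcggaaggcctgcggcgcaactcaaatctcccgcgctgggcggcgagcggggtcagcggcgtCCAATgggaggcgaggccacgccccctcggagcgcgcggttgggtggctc
Shmt1: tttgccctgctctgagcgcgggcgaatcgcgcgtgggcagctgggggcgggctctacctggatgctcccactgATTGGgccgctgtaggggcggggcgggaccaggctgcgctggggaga
Tyms: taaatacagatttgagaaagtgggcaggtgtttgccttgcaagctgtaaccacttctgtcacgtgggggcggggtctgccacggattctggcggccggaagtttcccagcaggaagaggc

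A window exists for 8 of the 9 members in the RefSeq table (250 bases before to 50 after a start site). CCAAT, the box bound by NF-Y, was found on either strand in 4 of 8 members (Rrm1, Rrm2, Shmt1 and Dctd), against 41.1% of 27025 genes with a window. It begins 50 bases before the start in Rrm2 and 47 bases before it in Shmt1, and Rrm1 has 1 such box at 91 and another at 45 bases. The E2F words TTTCCCGC, TTTGGCGC, TTTCGCGC and TTTGCCGC were in 0 of 8 members, in 2.6% of all genes, and in 9 of 17 replication fork genes. The same 4 words with their first T left out, a setting chosen after that search, were in 3 of 8 members (Rrm1, Rrm2 and Shmt1), in 10.9% of all genes and in 12 of 17 fork genes. The CHR words TTTGAA and TTCGAA were in 1 of 8 members (Dck), in 21.7% of all genes and in 13 of 17 mitosis genes. The shorter words lie within the longer ones, so these counts overlap. A match is a description of letters and not a bound site.

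Rrm2, the S phase small subunit of ribonucleotide reductase, was at 29.9, 17.6 and 21.7 CPM in the Mdr1+ libraries of replicates 1, 2 and 3 and at 135, 201 and 181 CPM in the Mdr1- libraries. The groups lay far apart, and the ratios of Mdr1- to Mdr1+ within replicate numbers were 4.50, 11.4 and 8.34. The log2 fold change was -2.91 ± 0.26 (SE, edgeR quasi-likelihood test, adjusted p = 0.00271). Its call was kept in each fit that left out 1 library, and was lost without both libraries of replicate 3 (-2.86, edgeR adjusted p = 0.172). Of 2144 windows of 50 bases in its principal transcript 6.48% recur in 4 other annotated genes, so a small part of its reads may not have been counted as unique. The share was 11% for Tyms (137 genes), 11% for Rrm2b, 7.26% for Tk1 and 4.81% for Shmt1, and 0 for the other 4 members.

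Rrm1, the large subunit that both small subunits need, was at 195, 108 and 102 CPM in Mdr1+ and at 290, 320 and 264 CPM in Mdr1- libraries. The groups did not overlap, but the Mdr1+ library of replicate 1 lay well above the other 2 of its group. The log2 fold change of -1.11 ± 0.26 did not pass in edgeR (adjusted p = 0.0718). It passed with the block (-1.16, edgeR adjusted p = 0.0035), with library totals as the only scaling (-1.18, edgeR adjusted p = 0.041), with no filter on low counts (edgeR adjusted p = 0.00916) and in DESeq2 (adjusted p = 0.00449). It also passed without the Mdr1+ library of replicate 1 (-1.52, edgeR adjusted p = 0.01) or both libraries of replicate 1 (-1.54, edgeR adjusted p = 0.0211). The call with the block was lost without replicate 3 (-1.11, edgeR adjusted p = 0.121).

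Rrm2b, the small subunit used outside S phase, was at 15.6, 14.3 and 8.02 CPM in Mdr1+ and at 14.0, 10.1 and 10.7 CPM in Mdr1- libraries. The groups overlapped, and the pairs went both ways, with Mdr1+ higher in replicates 1 and 2 and lower in replicate 3. The log2 fold change was 0.16 ± 0.33 (edgeR adjusted p = 0.895), and over the alternatives with replicate 3 in its re-ordered place it ran from -0.09 to 0.36. The replicate 3 values rest on 17 and 63 counts. Its neighbour on the opposite strand, Gm49085, overlaps 734 bases of its exons, and whether the counting used strand is not given in the sources used here.

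Because p53 induces Rrm2b, a list of 20 p53 target genes was set beside it. Of the 19 tested, none was called by edgeR or by DESeq2 (0 at an unadjusted p under 0.05 lower and 2 higher), and 2 rose with the block. Those were Btg2 and Bbc3, named after their values were seen (log2 fold changes 0.51 and 0.98). Cdkn1a, the cell cycle inhibitor, had a log2 fold change of 0.01 ± 0.47 and Mdm2, the p53 ubiquitin ligase, one of -0.01 ± 0.15.

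The subunits can be compared within a library with no effect of its scaling. Rrm2 had 0.154, 0.163 and 0.215 counts per Rrm1 count in the Mdr1+ libraries and 0.463, 0.628 and 0.685 in the Mdr1- libraries. That is a 3.34-fold lower Rrm2 to Rrm1 ratio in Mdr1+ cells (log2 difference -1.74), with no overlap. Rrm2 had 1.91, 1.23 and 2.66 counts per Rrm2b count in Mdr1+ and 9.61, 19.8 and 16.8 in Mdr1- libraries, a log2 difference of -3.00. The counts of the 2 small subunits were thus closer to each other in Mdr1+ cells. A two-sided exact permutation test gave p = 0.1 for each of the 5 ratios computed (0.1 after Benjamini-Hochberg adjustment over the 5), which is the smallest that 3 against 3 allows. Paired by replicate number, an exact sign-flip permutation test gave p = 0.25 for each, the smallest that 3 pairs allow.

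**Figure D2:**
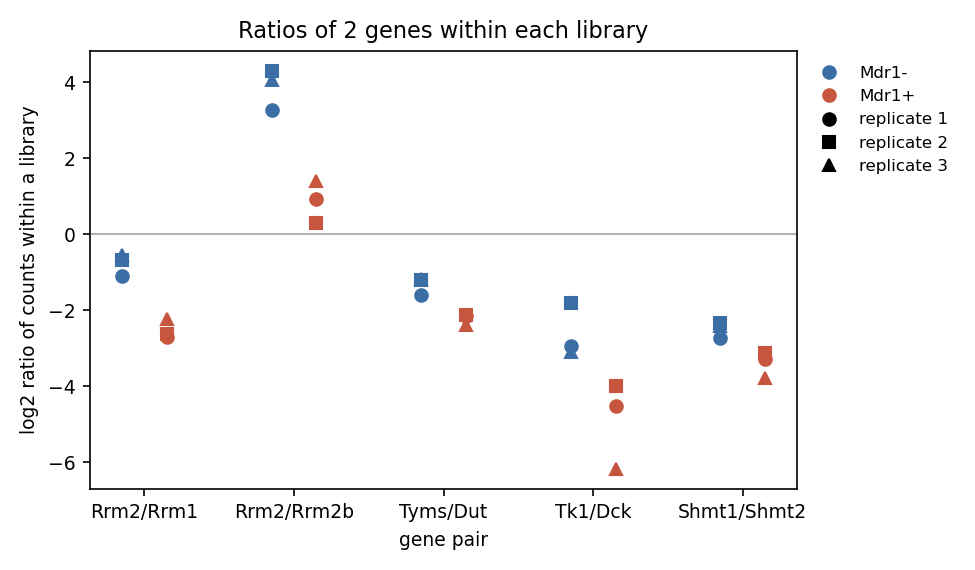
Log2 ratio of the counts of 2 genes within each library (y axis) for 5 gene pairs (x axis); blue is Mdr1-, red Mdr1+, and symbols are replicates. In each of the 5 pairs the Mdr1+ libraries lie below the Mdr1- libraries, with the widest gap for Rrm2/Rrm2b (mean 0.88 against 3.88).

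Thymidylate synthesis showed the same direction at its central step. Tyms, thymidylate synthase, was at 9.64, 10.001 and 5.19 CPM in Mdr1+ and at 32.1, 50.6 and 41.1 CPM in Mdr1- libraries. The groups were far apart, with within-number ratios of Mdr1- to Mdr1+ of 3.34, 5.06 and 7.92, the last resting on 11 Mdr1+ counts. Its log2 fold change was -2.24 ± 0.30 (edgeR adjusted p = 0.00647), and its call was lost without replicate 2 (-2.21, edgeR adjusted p = 0.0654) or replicate 3 (-2.11, edgeR adjusted p = 0.172).

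Dut, the dUTPase that makes the substrate of Tyms and keeps uracil out of DNA, was at 43.4, 44.1 and 28.3 CPM in Mdr1+ and at 97.1, 117 and 92.9 CPM in Mdr1- libraries. All 3 Mdr1+ libraries were at less than the lowest Mdr1- library, and the log2 fold change was -1.39 ± 0.21 (edgeR adjusted p = 0.0127). The call was lost without the Mdr1- library of replicate 3 (-1.45, edgeR adjusted p = 0.0544) and without any 1 replicate number (edgeR adjusted p = 0.0706 to 0.172). The Tyms to Dut ratio was 1.87-fold lower in Mdr1+ cells (log2 difference -0.91), with no overlap of libraries.

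Dctd, the dCMP deaminase that also feeds deoxyuridylate, was near the limit of these libraries. It had 6, 64 and 0 counts in Mdr1+ and 24, 37 and 11 counts in Mdr1- libraries, that is 0.997, 2.99 and 0 CPM against 2.68, 3.20 and 1.87 CPM. The 0 in replicate 3 allows up to 1.415 CPM by the one-sided floor of 3 counts, and up to 1.74 CPM by the two-sided exact 95% Poisson interval, both for counting error only. The groups overlapped, and the log2 fold change was -0.63 ± 0.74 (edgeR adjusted p = 0.804). It was -1.95 without the Mdr1+ library of replicate 2 and -0.31 without that of replicate 3.

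Shmt1, the cytosolic serine hydroxymethyltransferase, was at 5.48, 8.93 and 3.77 CPM in Mdr1+ and at 9.49, 18.0 and 14.3 CPM in Mdr1- libraries. The groups did not overlap but came close, at 8.93 against 9.49 CPM, and the Mdr1+ value of replicate 3 rests on 8 counts. The log2 fold change of -1.11 ± 0.40 did not pass (edgeR adjusted p = 0.287) and did with the block (edgeR adjusted p = 0.0417). That call was lost without replicate 1 (edgeR adjusted p = 0.0633) or replicate 2 (edgeR adjusted p = 0.233). Shmt2, its mitochondrial counterpart, was at 62.4 ± 13.8 and 76.7 ± 13.2 CPM (SD, n = 3 each), overlapping, with a log2 fold change of -0.29 ± 0.22 (edgeR adjusted p = 0.682). Within libraries the Shmt1 to Shmt2 ratio was 1.88-fold lower in Mdr1+ cells (log2 difference -0.91), with no overlap. Opposite-strand exons of Smcr8 cover 184 bases of Shmt1.

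The 2 salvage kinases fell by different amounts. Tk1, the S phase thymidine kinase, was at 2.82, 3.13 and 0.472 CPM in Mdr1+ and at 16.0, 29.9 and 15.5 CPM in Mdr1- libraries. The value of replicate 3 is a single count, with an exact 95% Poisson interval of 0.0119 to 2.63 CPM for counting error only, and the other Mdr1+ libraries rest on 17 and 67 counts. The log2 fold change was -3.02 ± 0.49 (edgeR adjusted p = 0.0158). Without the Mdr1+ library of replicate 3 Tk1 was still called, and without the Mdr1- library of replicate 3 (-3.21, edgeR adjusted p = 0.0544) or any 1 replicate number (-3.38 to -2.97, edgeR adjusted p = 0.0951 to 0.172) it was not. Exons of Afmid on the opposite strand overlap 83 bases of Tk1.

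Dck, the deoxycytidine kinase of lymphocytes, was at 67.1, 50.2 and 50.9 CPM in Mdr1+ and at 123, 105 and 133 CPM in Mdr1- libraries. The groups did not overlap and each was tight, with SDs of 9.57 and 14.1 CPM (n = 3 each). The log2 fold change was -1.10 ± 0.19 (edgeR adjusted p = 0.0199). The call was lost without the Mdr1+ library of replicate 2 (-1.01, edgeR adjusted p = 0.0733), the Mdr1+ library of replicate 3 (-1.04, edgeR adjusted p = 0.0636) or the Mdr1- library of replicate 3 (-1.02, edgeR adjusted p = 0.13), and without any 1 replicate number (edgeR adjusted p = 0.0555 to 0.282). The Tk1 to Dck ratio was 4.87-fold lower in Mdr1+ cells (log2 difference -2.28), with no overlap.

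The replicate libraries were not alike in the members. The Mdr1+ library of replicate 3 was the lowest of its group in 7 of 9 members, the exceptions being Rrm2 and Dck, and it is the shallowest library. The Mdr1- library of replicate 2 was the highest of its group in 7 of 9, the exceptions being Rrm2b and Dck. Summed over the 9 members, the Mdr1+ libraries held 370, 259.6 and 220.2 CPM and the Mdr1- libraries 719, 854 and 755 CPM, so the lowest Mdr1- library stood above the highest Mdr1+ library. The sum is dominated by Rrm1, Rrm2, Dck and Dut.

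Levels of different genes were compared per kb of the principal GENCODE transcript. In Mdr1- cells the 2 subunits Rrm2 and Rrm1 led at 78.5 ± 15.5 and 72.9 ± 6.9 CPM per kb (SD, n = 3 each) and did not differ beyond their spread. Dut (52.5 ± 6.6), Dck (39.1 ± 4.6), Tk1 (14.2 ± 5.7), Tyms (13.1 ± 2.9), Shmt1 (4.87 ± 1.49), Rrm2b (2.54 ± 0.45) and Dctd (1.23 ± 0.32) followed in CPM per kb. Tk1 and Tyms were also within their spread of each other. In Mdr1+ cells the order was another: Rrm1 led at 33.8 ± 13.0 CPM per kb, followed by Dut at 19.8 ± 4.6, Dck at 18.2 ± 3.1 and Rrm2 at 10.5 ± 2.9. Below them Rrm2b (2.78 ± 0.89), Tyms (2.62 ± 0.85), Shmt1 (2.12 ± 0.92) and Tk1 (1.49 ± 1.01) lay within an SD of their neighbours, as did Dut and Dck, and Dctd was lowest at 0.634 CPM per kb. Rrm2 and Rrm1, level in Mdr1- cells, were thus apart in every Mdr1+ library, by 13.6 against 48.8, 8.03 against 27.1 and 9.89 against 25.5 CPM per kb.

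**Figure D3:**
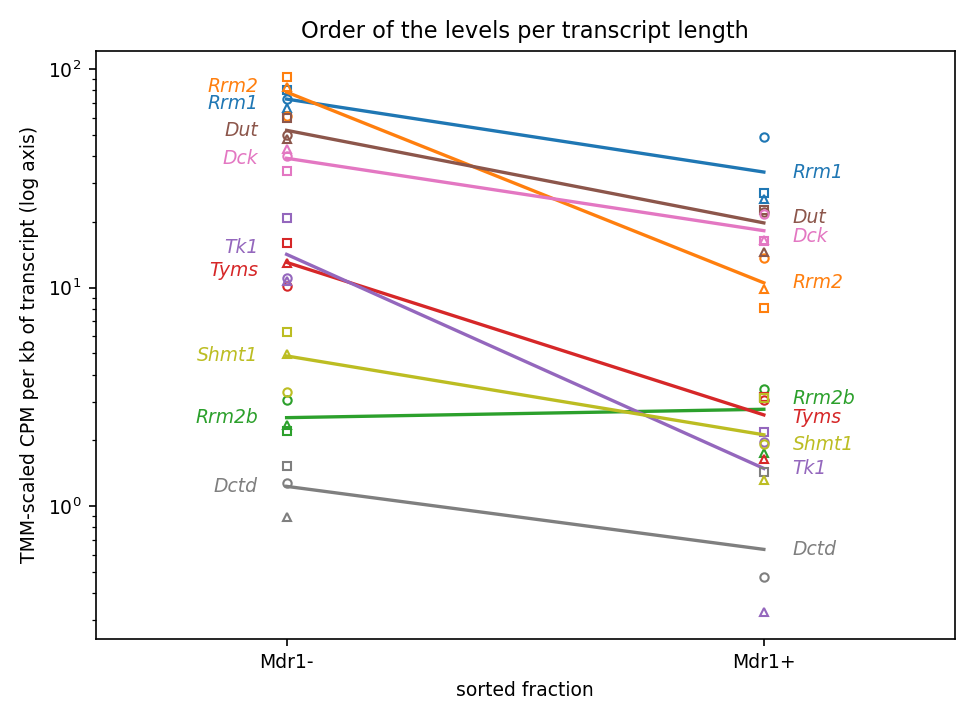
TMM-scaled CPM per kb of principal transcript (y axis, log scale) of the 9 genes in Mdr1- and Mdr1+ cells; lines join group means, open symbols are libraries (circle, square and triangle for replicates 1, 2 and 3), and the Mdr1+ replicate 3 value of Dctd, 0, is not drawn. Rrm2 goes from 78.5 in Mdr1- to 10.5 in Mdr1+ cells and crosses below Dut and Dck, while Rrm2b stays between 1.76 and 3.42 in every library.

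The profile of each small subunit over the 6 libraries was compared with 7353 other genes of at least 4 in average log2 CPM for Rrm2 and with 7354 for Rrm2b, by the root mean square difference of log2 CPM after each gene's mean was taken off. The 5 genes nearest to Rrm2 were Ccna2, Nuf2, Bub1b, Kif15 and Kif4, at 0.188 to 0.252 log2 units. Their log2 fold changes were -3.23 to -2.76, beside -2.91 for Rrm2. The group difference stays in the measure, so genes with a like fold change come out near. Ccna2 encodes a cyclin of S phase and G2, Nuf2 and Bub1b encode kinetochore and checkpoint proteins, and Kif15 and Kif4 encode mitotic motors. The 5 nearest to Rrm2b were Rps3a1, Chmp2b, Fam120c, Ftsjd1 and Ubqln2, at 0.0705 to 0.0905 log2 units, with log2 fold changes of 0.01 to 0.22. A gene whose groups differ little has many near neighbours, so the smaller distances are no sign of a closer relation.

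Few other genes of nucleotide metabolism were called. Of 68 tested genes in 6 further lists 1 was called lower and 0 higher in edgeR without the block (12 and 2 at an unadjusted p under 0.05; DESeq2 called 7 and 0) beside the 1.95% and 0.275% of all tested genes. With the block 12 fell and 2 rose, beside 6.57% and 5.81% of all tested genes. Their median log2 fold change was -0.20.

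Of the 12 tested folate genes Mthfd1 and Mthfd2, enzymes that interconvert folate one-carbon units in cytosol and mitochondria, fell with the block (log2 fold changes -0.50 and -0.43 without it, edgeR adjusted p = 0.386 and 0.311, and 0.0289 and 0.0269 once blocked).

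Of 17 tested nucleoside and nucleotide kinases 0 were called without the block (edgeR; 3 lower and 1 higher at an unadjusted p under 0.05; DESeq2 called 2 lower) and 3 fell with it. Dtymk, thymidylate kinase, which acts on the product of both Tyms and Tk1, was at 11.5, 17.7 and 10.8 CPM in Mdr1+ and at 22.8, 30.9 and 31.1 CPM in Mdr1- libraries. The groups did not overlap, and the log2 fold change of -1.04 ± 0.28 passed only with the block (edgeR adjusted p = 0.125, and 0.0131 once blocked). Ak3 and Nme1, kinases of nucleotide pools in general, had log2 fold changes of -0.60 and -0.41 and fell with the block. The mitochondrial salvage kinases did not follow Tk1 and Dck in these values: Tk2 was at 63.1, 72.3 and 91.5 CPM in Mdr1+ and at 54.7, 50.7 and 43.5 CPM in Mdr1- libraries (log2 fold change 0.60 ± 0.20, edgeR adjusted p = 0.237, and 0.055 once blocked), and Dguok had a log2 fold change of 0.40 ± 0.24. Every Mdr1+ library lay above every Mdr1- library for Tk2, and the Dguok libraries overlapped.

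**Figure D4:**
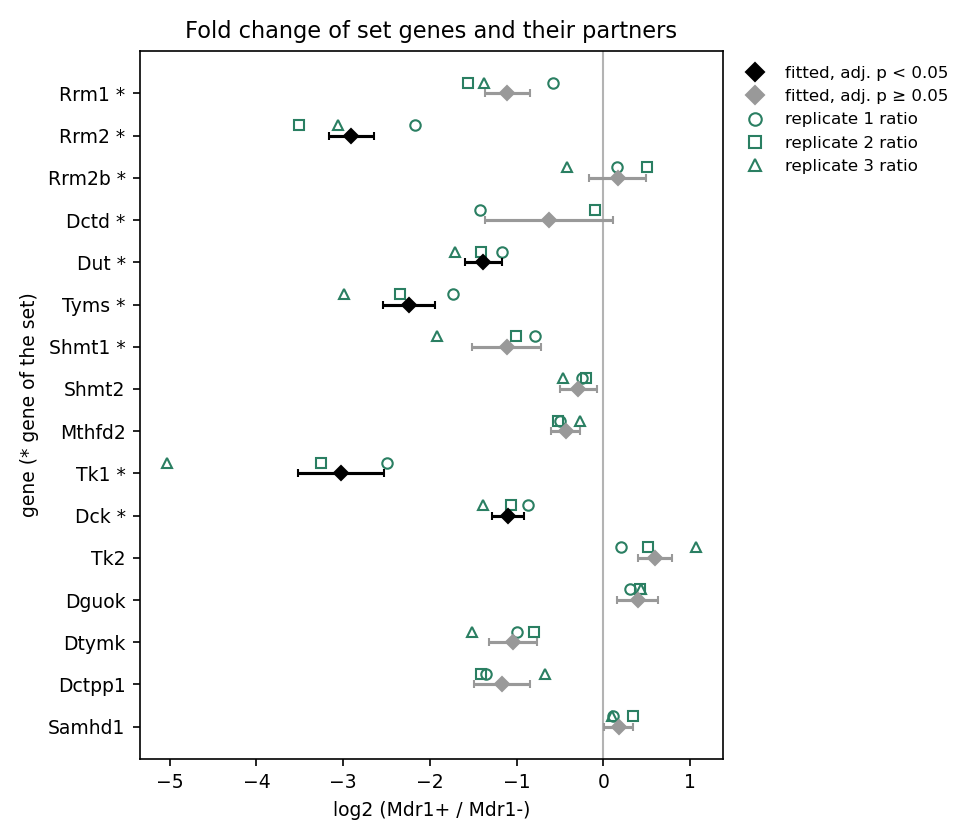
Log2 fold change with its SE from the fit without the block (diamonds, x axis) for the 9 genes (starred) and 7 partner genes (y axis). Diamonds are black where the edgeR adjusted p of that fit is under 0.05 and grey otherwise. Open symbols are the ratios within each replicate number (Dctd of replicate 3, at 0 in Mdr1+, has none). Tk1, Rrm2 and Tyms lie furthest to the left, from -3.02 to -2.24, and Tk2, Dguok, Samhd1 and Rrm2b lie at or above 0.16.

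Among 15 tested genes of deoxynucleotide breakdown and clean-up 0 were called without the block (edgeR; 4 lower and 1 higher at an unadjusted p under 0.05; DESeq2 called 3 lower), and 3 fell and 1 rose with it. Dctpp1, which hydrolyses modified dCTP, was at 12.9 ± 3.4 against 28.7 ± 9.7 CPM (SD, n = 3 each; log2 fold change -1.17, edgeR adjusted p = 0.00843 with the block). Dera, the deoxyribose phosphate aldolase, had a log2 fold change of -0.91 (edgeR adjusted p = 0.0538, and 0.00907 once blocked). Dnph1, a hydrolase of modified deoxynucleotides, fell with the block from a low level (3.05 ± 1.68 CPM in Mdr1-, SD, n = 3). The gene that rose was Nt5e, which encodes the surface nucleotidase CD73 and was named after its values were seen (375 ± 35.9 against 249 ± 36.0 CPM, SD, n = 3 each). Samhd1, the dNTP hydrolase that lowers dNTP pools in resting cells, was at 332, 306 and 308 CPM in Mdr1+ and at 307, 242 and 288 CPM in Mdr1- libraries, overlapping, with a log2 fold change of 0.18 ± 0.16 (edgeR adjusted p = 0.743).

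Ribonucleotide synthesis, which supplies the substrate of ribonucleotide reductase, gave few calls. In edgeR 0 of 5 tested pyrimidine genes passed in either fit (0 at an unadjusted p under 0.05 and 0 by DESeq2). Of 14 tested purine genes 0 passed without the block (1 lower at an unadjusted p under 0.05; DESeq2 called 1 lower) and Paics, Pfas and Hprt fell with it, at log2 fold changes of -0.85, -0.49 and -0.42. Of 5 tested nucleoside transporters 0 passed in either fit (edgeR; 1 lower at an unadjusted p under 0.05; 0 by DESeq2).

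Of 11 tested regulators of ribonucleotide reductase and Tk1, a list drawn up with earlier results known, 5 fell (Chek1, Wee1, E2f2, E2f7 and E2f8), and with the block 8 fell and 1 rose, the latter being Atr, named after its values were seen. E2f2, an activator of S phase genes, was at 91.7, 67.4 and 74.5 CPM in Mdr1+ and at 155, 236 and 205 CPM in Mdr1- libraries (log2 fold change -1.35 ± 0.21, edgeR adjusted p = 0.0127). E2f7 and E2f8, repressors of the same genes, had log2 fold changes of -2.03 and -3.33, and Chek1 and Wee1, checkpoint kinases that restrain origin firing and mitosis, of -2.24 and -1.36. E2f1, E2f3 and Ccnf, the last a ubiquitin ligase subunit that marks Rrm2 for destruction, had log2 fold changes of -1.21, -0.86 and -1.35 and fell with the block. Fzr1, the Cdh1 activator of the ligase that degrades Rrm2 after mitosis, was at 39.8 ± 8.3 and 51.9 ± 10.7 CPM (SD, n = 3 each), with overlapping libraries (edgeR adjusted p = 0.596).

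Markers of other cells also differed between the fractions. Dendritic cell markers summed to 24.2 to 48.1 CPM in Mdr1+ and 62.1 to 84.6 CPM in Mdr1- libraries, with Flt3, Xcr1 and Siglech under 1 CPM in every library. Cd74, of antigen presentation, was at 22.6, 19.4 and 34.0 CPM in Mdr1+ and 45.3, 56.6 and 59.4 CPM in Mdr1- libraries, and with the block Cd74 and H2-Aa fell (edgeR adjusted p = 0.00432 and 0.0192). Myeloid markers summed to 104 CPM in the Mdr1- library of replicate 3 and to 11.0 to 24.5 CPM in the other 5. Among them Lyz2 was at 0.332, 0.140 and 1.41 CPM in Mdr1+ and at 1.67, 0.432 and 14.6 CPM in Mdr1- libraries, and fell with the block (edgeR adjusted p = 0.0461). Cd68 had a log2 fold change of 0.13, with overlapping libraries. B cell markers summed to 11.5 to 22.8 CPM in Mdr1+ and 7.14 to 11.3 CPM in Mdr1- libraries, with Ms4a1 at or under 0.112 CPM and Cd22 rising with the block (edgeR adjusted p = 0.0371). NK cell markers summed to 15.1 to 20.8 CPM and 8.13 to 14.6 CPM, with Klra8 and Klra4 at 0 throughout and Klrb1c making up nearly all of the sum. Stromal and endothelial markers summed to 117 to 191 CPM and 125 to 136 CPM, mostly Pecam1, with Pdpn and Kdr at 0 throughout. Among them Acta2, smooth muscle actin, fell, from 4.35, 6.40 and 4.08 CPM in Mdr1- to 0, 0.280 and 0 CPM in Mdr1+ libraries (edgeR adjusted p = 0.018), and Cdh5 was at 1.79 to 2.42 and 0.327 to 0.472 CPM. Their part in the members' falls was not tested.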

How the data were processed

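Total RNA (500 ng per library) was made into stranded total RNA libraries, per the labels' protocols. Reads were handled with TopHat and HTSeq, with build mm9 and DESeq2 also listed, per the submitters' processing notes. The authors deposited raw read counts per gene. The sources used here give neither read length nor the strand setting of the counting. Of all tallies in the 4 libraries of replicates 1 and 2, 66.96% to 73.17% were alignments without a unique place and 13.2% to 19.67% lay outside genes. These rows were left out. The shares are of tallies, and whether a read was tallied more than once is not given. Replicate 3 columns were matched to gene names sorted without regard to case, a departure from the deposited order. Replicates differed by more than counting noise (chi-square per degree of freedom 15.3 to 56.7).

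Mdr1+ was compared with Mdr1- in edgeR 4.0.16 (R 4.3.3; TMM, filterByExpr, robust quasi-likelihood test, Benjamini-Hochberg adjustment over 10897 genes, threshold 0.05). Errors of fold changes are the log2 fold change over the root of F. TMM factors were 0.9475 to 1.1, and 3 counts equal 0.1402 to 1.415 CPM. Deviations of libraries with the same replicate number correlated at 0.409, 0.568 and 0.213. Each pair being over 0.1, a pairing by number was taken as likely. The main fit, its SEs and its calls leave the pairing out. For the genes named, a call that the block changes is stated. The labels share the numbers but do not state a pairing, so it rests on these correlations. Ratios used counts plus 0.5 and an exact permutation test. Alternatives were a replicate block, other scalings and filters, DESeq2 1.42.0, left-out libraries and the deposited order. The code was tested on simulated data.

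The members and lists were chosen with earlier results of these data known. Named genes are the members and their fixed partners, listed genes passing without the block, the 3 largest changes per list passing only with it, and the 5 profiles nearest to Rrm2 and Rrm2b. Transcript lengths and overlaps came from GENCODE annotation and promoters from RefSeq (GRCm38.p6), which is not the build of the counts, so they describe the genes and not the reads. Values of some listed genes are not reported here, though the counts over their lists include them.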

Additional observations from a re-analysis of the deposited data

How the results depend on the processing

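No result reversed its direction of call. The count of 5 members lower was 7 with the replicate block, 4 to 6 under the other scalings, filters, DESeq2 and the removal of single libraries other than the Mdr1- library of replicate 3, 0 to 6 over all left-out libraries and replicate numbers, and 0 with replicate 3 in the order as deposited. With the replicate block and 1 number left out it was 6 in each of 3 fits, an alternative chosen after seeing the data. Members called higher were 0 throughout. Other pathway genes called lower were 1, and 7 with DESeq2, 2 with no filter on low counts, 0 with the deposited order and 0 to 1 over left-out libraries and numbers. With the replicate block 12 were lower and 2 higher. Over all tested genes 212 were lower and 30 higher. These counts became 716 and 633 with the replicate block, 381 and 103 with DESeq2, and 0 and 0 both without replicate 3 and in the deposited order. The 5 within-library ratios kept their direction without any 1 replicate number, as paired differences and with a prior count of 2. They were not computed in the deposited order. The cause of these changes was not tested.

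Depth limits Dctd, Tk1, Shmt1, Tyms and Rrm2b in the Mdr1+ library of replicate 3, which rest on 0, 1, 8, 11 and 17 counts. The calls of Dck, Dut and Tk1 without the block were lost without any 1 replicate number. A call lost with fewer libraries does not show that the level was alike.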

Other observations

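Each member was also set against the summed CPM of the 23 replication fork genes of the same library, as a description with no test. By this measure Rrm2 was at 2.56, 1.57 and 2.17% of the fork sum in Mdr1+ and at 5.52, 7.04 and 6.74% in Mdr1- libraries, so it was lower against that sum in Mdr1+ cells. Tk1 (log2 difference -2.11) and Tyms (-1.05) were lower without overlap as well. Rrm1 (0.11), Dut (-0.15), Dck (0.17), Dctd (-0.22) and Shmt1 (0.07) overlapped between the fractions. Rrm2b was at 1.33, 1.28 and 0.801% of the fork sum in Mdr1+ and at 0.573, 0.355 and 0.398% in Mdr1- libraries. The fork sum itself fell, from 2436 to 2850 CPM in Mdr1- to 1001 to 1170 CPM in Mdr1+ libraries. A gene at a similar level in both fractions, as Rrm2b was (log2 fold change 0.16), is therefore higher against it by construction. An overlap against the fork sum does not show that a member fell alike. Single fork genes varied, with log2 fold changes from -2.52 to -0.37. Tyms (-2.24) lay within that range, and Rrm2 (-2.91) and Tk1 (-3.02) lay below it. Each of these members lay within the range of the 20 mitosis genes, from -3.74 to -1.47.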
